A study of Homo sapiens with 16 samples.

Results

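In 108 reporter inserts the most used start base lay more than 5 bp from the base they were centred on. These inserts carry random sites, stretches of the human genome that the library names RAND_TSS with an hg38 interval and a strand. TSS is read here as transcription start site. The sites were chosen by where capped reads began in the short libraries. Of 250 random sites among the 499 short inserts, 245 had at least 50 reads in each of the 4 short RNA samples. Each insert's start profile was divided by its sum in each sample and averaged over the 4 samples, and the 108 sites whose highest position lay more than 5 bp from the middle of the insert were kept. The other 137 had it within 5 bp. Main start and began mainly, here and below, refer to the single most used base of a profile, which need not hold most of the starts. Since the short start profiles chose the sites, start positions and shares in the short libraries are a description, with no test.

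The assay was TSS-MPRA, a massively parallel reporter assay in which barcoded inserts drive a transcript and reads mark the 5′ ends of that transcript's capped RNA, base by base. All samples were K562 cells, an erythroleukemia line, labelled WT, and the labels name no treatment. The groups were EpiShort, LentiShort, EpiLong and LentiLong, each with 2 RNA samples (TSS-MPRA) and 2 DNA samples (DNA-seq); the labels do not spell out Epi and Lenti, read here as episomal and lentiviral vectors, and short and long inserts hold the same sites with less or more flanking sequence. The labels do not say that replicates were separate cultures, so the p-values speak only of the scatter among these libraries, part or all of which may be technical.

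RNA reads per sample ran from 11140433 to 21571370 in the short and from 14409521 to 26720416 in the long libraries. DNA reads ran from 6104945 to 15286382, apart from 1698930 in EpiShort replicate 2. The median RNA reads per displaced site were 11242 and 9989.5 in EpiShort and 8498 and 9165 in LentiShort. The lowest, taken in each sample separately and not all of the same site, were 72 and 75, and 267 and 266.

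RNA polymerase II finds its start base through general transcription factors that assemble on the core promoter. Starts favour a purine that follows a pyrimidine, the core of the initiator element, and a TATA box, bound by TBP, places the start a short distance downstream. Most human promoters lack a TATA box and spread their starts over many bases, and capped small RNA sequencing (csRNA-seq) maps the starts of promoters and enhancers in the genome from short capped transcripts.

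The sequences of 9 sites carry patterns described below. Each is read from hg38 on the transcribed strand, 5′ to 3′, from 40 bases before the earlier to 10 bases after the later of the main start and the middle. Capitals mark the start base and the base before it, at the main start and at the middle. The first 4 are intergenic and antisense sites that put a large share of their starts on 1 displaced base. The next 3 had the farthest main starts, all upstream, so that the first pair of capitals is the main start. In the eighth the long insert returned to the middle, and the last used a different start in each vector.
chr9:131279004-131279066 (-): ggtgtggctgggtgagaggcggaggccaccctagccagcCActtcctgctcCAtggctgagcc
chr3:171447495-171447572 (+): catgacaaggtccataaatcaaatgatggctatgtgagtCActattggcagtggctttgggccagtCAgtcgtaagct
chr4:38524016-38524094 (+): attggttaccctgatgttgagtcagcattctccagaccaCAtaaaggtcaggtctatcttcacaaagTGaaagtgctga
chr11:95734133-95734205 (-): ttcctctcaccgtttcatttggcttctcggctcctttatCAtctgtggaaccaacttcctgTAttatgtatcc
chr6:31703375-31703486 (+): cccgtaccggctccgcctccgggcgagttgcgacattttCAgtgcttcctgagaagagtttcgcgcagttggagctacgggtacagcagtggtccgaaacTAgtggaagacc
chr21:42893726-42893838 (-): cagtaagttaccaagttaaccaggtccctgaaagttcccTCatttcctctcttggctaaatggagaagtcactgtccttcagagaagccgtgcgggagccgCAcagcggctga
chr11:12167148-12167258 (-): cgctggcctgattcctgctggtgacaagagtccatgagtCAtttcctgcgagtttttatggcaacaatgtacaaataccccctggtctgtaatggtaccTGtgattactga
chr9:65385480-65385557 (-): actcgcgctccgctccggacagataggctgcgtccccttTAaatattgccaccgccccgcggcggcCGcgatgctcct
chr12:118120938-118121021 (-): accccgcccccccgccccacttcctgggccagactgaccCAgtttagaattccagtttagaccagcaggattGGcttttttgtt

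Main starts lay upstream of the middle in 60 sites and downstream in 48. Upstream distances ran from 6 to 62 bp and downstream distances from 9 to 35 bp, both with a median of 21 bp. Short reads were found no further than 36 bp downstream of the middle, so a start beyond that base could not be chosen. Of the 108, 9 upstream and 2 downstream sites lay 6 to 10 bp away, 20 and 21 lay 11 to 20 bp away, 9 and 17 lay 21 to 30 bp away, and 13 and 8 lay 31 to 40 bp away. The remaining 9 lay 41 to 62 bp upstream. The sites came from 22 chromosomes, and 53 were on the + strand.

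Most displaced sites spread their starts over several bases. In the mean profile the main base held a median of 22.4% of the starts (9.45% to 67.2%), against 30.1% in the 137 other sites. The next most used base held 14.2%, and a median of 5 bases held over 5% each. The main base held more than 50% of the starts in 5 of 108 displaced sites and in 21 of the 137 others. The middle was not empty: a median of 15.0% of the starts lay within 5 bp of it (0.670% to 53.8%), and 94 of 108 sites had more starts within 5 bp of the main start than of the middle. Across samples the median share on the main base was 20.9% and 20.8% in EpiShort and 24.6% and 24.7% in LentiShort.

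The 10 farthest main starts were all upstream. The site at chr21:42893661-42893811 (-) runs antisense to NDUFV3, a gene of mitochondrial complex I, and its main start 62 bp upstream held 15.5% and 14.3% in EpiShort and 18.5% and 21.0% in LentiShort. This start is the TC of the printed sequence, not a pyrimidine followed by a purine. At chr6:31703401-31703551 (+), antisense to ABHD16A, the main start 61 bp upstream held 23.1% and 24.1% in EpiShort and 21.9% and 20.6% in LentiShort, and 1.91% to 3.99% of the starts lay near the middle, meaning within 5 bp of it here and below. At chr11:12167083-12167233 (-) the main start 60 bp upstream held 10.6% and 8.83% in EpiShort and 17.8% and 17.1% in LentiShort, with 14.2% to 22.3% near the middle. LentiShort was above EpiShort at the first and the last of these sites and below it at the second.

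At chr9:129863005-129863155 (-), 53 bp upstream, the share on the main base was 15.2% in both EpiShort samples and 39.1% and 40.2% in LentiShort, so the vectors stood apart. At chr22:20021478-20021628 (-), antisense to TANGO2 and 48 bp upstream, they stood apart the other way, with 29.2% and 30.3% in EpiShort and 12.1% and 13.5% in LentiShort. At chr4:6986921-6987071 (-), opposite TBC1D14, the base 49 bp upstream held 13.8% to 17.0%, while 34.7% to 41.4% of the starts lay near the middle. Also among the 10 were ANP32A (chr15:68817497-68817647, - strand), chr4:81420732-81420882 (-) and chr7:102420954-102421104 (-), each 43 bp upstream, with means of 19.8%, 18.8% and 33.7% on the main base.

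The highest share on 1 displaced base was at HNRNPA3, which encodes an RNA-binding protein of the hnRNP family. In this site at chr2:177212719-177212869 (+) the base 34 bp upstream of the middle held 62.7% and 61.1% in EpiShort and 72.7% and 72.6% in LentiShort. At chr9:131278939-131279089 (-), between genes, the CA step 12 bp upstream held 52.9% and 52.6% in EpiShort and 65.4% and 65.8% in LentiShort. In both sites the LentiShort samples were above the EpiShort samples.

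The order was the other way at chr3:171447460-171447610 (+), where the CA step 27 bp downstream held 64.9% and 64.3% in EpiShort and 50.9% and 52.1% in LentiShort. At BCL2L1 (chr20:31723885-31724035, - strand), which encodes the anti-apoptotic protein Bcl-xL, the base 26 bp downstream held 49.2% and 52.5% in EpiShort and 48.4% and 49.3% in LentiShort, and the vectors overlapped. At ADK (chr10:74176674-74176824, + strand), which encodes adenosine kinase, the base 14 bp downstream held 39.3% and 39.8% in EpiShort and 48.2% and 47.0% in LentiShort, with LentiShort higher. Also among the 10 highest were chr8:144428573-144428723 (+), chr4:38523981-38524131 (+), chr11:95734090-95734240 (-) and chr1:36150963-36151113 (+), 20 to 32 bp downstream, with means of 50.8%, 46.6%, 45.2% and 43.3%.

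The sites just past the 5 bp limit were those at chr14:92994187-92994337 (-), TMEM219 (chr16:29962066-29962216, + strand), CCDC97 (chr19:41310153-41310303, + strand) and chr1:244370295-244370445 (-), each 6 bp upstream, and chr5:42993459-42993609 (+) and IFT74 (chr9:26956344-26956494, + strand), each 7 bp upstream. Their main base held 19.6% to 27.5% of the starts in the mean profile, with 7.86% to 35.8% near the middle. The 6 sites just inside the limit, with main starts 4 or 5 bp away, had 13.5% to 31.7% on the main base and 28.4% to 63.6% near the middle. The 2 sides of the limit overlapped in both measures.

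The samples mostly shared the displaced start. A sample's own highest position lay within 5 bp of it in all 4 short samples in 67 of 108 sites, in 3 samples in 17, in 2 in 23 and in 1 sample in 1 site. In the 137 other sites all 4 samples shared the main start in 114. Each insert was carried by up to 4 barcodes with enough reads, and every one of these had its highest position within 5 bp of the displaced start in 51 of 108 sites (47.2%). In the 137 other sites all such barcodes lay within 5 bp of the main start in 97 (70.8%).

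In 17 of the 108 sites, and 6 of the 137 others, the 2 EpiShort samples shared one main start and the 2 LentiShort samples another, more than 5 bp away. The main start of the mean profile was that of EpiShort in 9 of these 17 and that of LentiShort in 8. At chr12:118120873-118121023 (-), near a start of VSIG10, both EpiShort samples began mainly 33 bp upstream, at the CA of the printed sequence, and both LentiShort samples at the middle.

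The long libraries, which the choice did not use, repeated both starts sample by sample in 2 of these 17 sites, VSIG10 among them, and not in the other 15. The odds of a long start within 5 bp of the short main start were lower in LentiLong than in EpiLong at VSIG10 by a log2 difference of -1.74 (SE 0.16, Benjamini-Hochberg adjusted p = 0.00685, limma). In all, 9 of the 17 passed this test at an adjusted p under 0.05, where 48.9% of all 237 random sites tested did. Fewer of the 17 passed whenever 1 sample was left out, in fits that left 1 vector with 1 sample. With the replicate number as a block 5 did. The share of all 237 that passed under these settings is not given. In 8 of the 9 the vector that used the start in the short insert also had the larger odds in the long one. The ninth, named after its values were seen, was chr22:23717381-23717531 (+), where EpiShort used the main start and LentiLong had the larger odds (a log2 difference of 1.00, adjusted p = 0.0106, limma).

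By GENCODE v44, 43 of the 108 sites (39.8%, against 41.2% of all 245) had an annotated transcript start on their own strand at most 500 bp away. Another 24 lay near a start on the opposite strand only, and 41 near none. The displaced base was in a UTR exon in 27 sites, in a coding exon in 1, in a non-coding exon in 9, in an intron in 11, antisense to a gene in 34 and between genes in 26. An annotated start lay within 5 bp of the displaced base in 17 sites (15.7%, against 17.6% of all 245): in 8 near that base only, and in 9 also near the middle. In 5 further sites one lay near the middle only.

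With an annotated start near the displaced base only, the main starts lay upstream of the middle in ANP32A, an acidic nuclear phosphoprotein, at 43 bp, C1RL, a complement C1r-like protease, at 32 bp, NRSN2-AS1 at 32 bp, TOP2B, DNA topoisomerase II beta, at 17 bp, NDUFC1, a subunit of complex I, at 13 bp, SF3B3, a subunit of the splicing factor SF3b, at 11 bp and IFT74, an intraflagellar transport protein, at 7 bp, and downstream in ADK at 14 bp. With one near both bases, they lay upstream in HNRNPA3 at 34 bp, MUTYH, a DNA glycosylase, at 31 bp, TRMT11, a tRNA methyltransferase subunit, at 21 bp and WDR74, a factor of ribosome biogenesis, at 21 bp, and downstream in, among others, FKBP15 at 28 bp, LSM6, an Sm-like RNA-binding protein, at 22 bp, RPGRIP1L, a protein of the ciliary transition zone, at 21 bp, and LINC03011 at 14 bp. With one near the middle only, they lay upstream in SMYD5 at 12 bp and PCGF5, a Polycomb group protein, at 10 bp, and downstream in ZSCAN5A, a zinc finger protein, at 29 bp, BCL2L1 at 26 bp and TRIM21, an E3 ubiquitin ligase, at 18 bp.

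The remaining 21 of the 43 had no annotated start within 5 bp of either base. Their main starts lay upstream in GID4, the substrate receptor of the CTLH ubiquitin ligase, at 34 bp, VSIG10 at 33 bp, ADPRH, an ADP-ribosylarginine hydrolase, at 26 bp, COX17, a copper chaperone for cytochrome c oxidase, at 25 bp, CCDC103 at 15 bp, ALDH1A2, an enzyme of retinoic acid synthesis, at 12 bp, HCG14 at 12 bp, WDR89 at 12 bp, ANPEP, aminopeptidase N, at 11 bp, PMS1, a mismatch repair protein, at 10 bp, CCDC97 at 6 bp and TMEM219 at 6 bp. They lay downstream in RNF32 at 35 bp, CERCAM at 16 bp, MESP2, a bHLH transcription factor, at 14 bp, RN7SKP168, a 7SK pseudogene, at 14 bp, TSACC at 12 bp and RENO1 at 9 bp. The last 3 lay near genes without a symbol, all upstream.

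Displaced starts mostly fell on the initiator step. A pyrimidine preceded a purine at the main start in 93 of 108 sites (86.1%) and in 215 of all 245 (87.8%). The step was CA in 63 displaced sites, TA in 19, CG in 6 and TG in 5. At the middle, which was not the main start of these sites, 88 of 108 also had the step, as CA in 41, TA in 10, CG in 17 and TG in 20. In the 137 other sites the middle held CA in 77, TA in 30, CG in 8 and TG in 13.

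A TATAA beginning 36 to 22 bases before the main start was found in 1 displaced site (0.926%) and in 5 of all 245 (2.04%). Over the 152 bases of each short window, on both strands, GGGCGG (a GC box) was found in 37 (34.3%, against 38.8% of all 245), CCAAT in 21 (19.4%, against 18.8%), CCGGAA (ETS) in 15 (13.9%, against 14.7%) and GCGCATGCG (NRF1) in 4 (3.70%, against 2.86%). AAGATGGC (YY1) was found in 1 (0.926%, against 1.22%), AGATAA (a core of GATA factors) in 12 (11.1%, against 7.76%) and TGANTCA (AP-1) in 10 (9.26%, against 8.57%). A match describes the letters only. GC content had a median of 61.2% in the displaced sites and 61.8% in the others.

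The long inserts used the displaced base more often than the middle. Of 106 displaced sites with at least 50 reads in each long sample, 55 (51.9%) had the highest position of the mean long profile within 5 bp of the displaced base, 52 of them on that very base. The middle was highest, within 5 bp, in 10 (9.43%), and the middle base itself in 7 of these. In 31 (29.2%) the long insert began mainly downstream of the bases that short reads reached, and in 10 elsewhere. Of the 131 other sites measured, 80 (61.1%) kept the main start of the short insert and 42 (32.1%) began mainly downstream of that reach.

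Of the 96 displaced sites whose windows of 5 bp around the 2 bases did not overlap, 59 had more long starts near the displaced base than near the middle in all 4 long samples, 14 had fewer in all 4, and 23 differed among samples or had equal numbers in at least 1 of them. The next medians are per sample over all 106 sites measured, those with overlapping windows included. Near the displaced base the median share of long starts was 20.8% and 23.7% in EpiLong and 24.9% and 23.4% in LentiLong. Near the middle it was 8.78% and 9.58% in EpiLong and 9.93% and 9.59% in LentiLong. The displaced base was kept by 25 of 58 upstream and 30 of 48 downstream sites. Of the 55 sites that kept it, 43 had it as the main start of all 4 short samples, as had 4 of the 10 that began at the middle and 16 of the 31 that began further downstream.

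Among the sites that kept the displaced base, TRIM21 (chr11:4393627-4393777, - strand), 18 bp downstream, had the most long reads. Its share of long starts near the displaced base was 39.5% and 43.1% in EpiLong and 44.6% and 45.1% in LentiLong, and 9.52% to 10.1% lay near the middle. At FKBP15 (chr9:113221231-113221381, - strand) it was 45.8% and 45.5% in EpiLong and 42.6% and 41.5% in LentiLong, and 1.58% to 2.97% lay near the middle. At chr19:48741654-48741804 (+), antisense to IZUMO1 and 34 bp downstream, it was 59.4% and 60.1% in EpiLong and 59.8% and 61.6% in LentiLong. In every long sample these 3 sites had more starts there than near the middle.

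At WDR74 (chr11:62839498-62839648, - strand) the base 21 bp upstream kept 41.8% and 42.1% in EpiLong and 47.9% and 47.8% in LentiLong within 5 bp. At chr6:31703401 the base 61 bp upstream kept 26.9% and 27.7% in EpiLong and 16.0% and 15.0% in LentiLong. At chr20:2525703-2525853 (-) the base 17 bp downstream kept 52.5% and 58.5% in EpiLong and 63.5% and 64.9% in LentiLong. LentiLong was higher in the first and the third and EpiLong in the second. Also among the 10 with most long reads were chr1:2180312-2180462 (-) and chr19:58182723-58182873 (-). At chr1:2180312 the middle was also used, with 31.0% and 29.2% in EpiLong and 18.9% and 20.0% in LentiLong near it, against 24.5% and 27.8% in EpiLong and 32.1% and 32.9% in LentiLong near the displaced base.

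Of the 10 sites whose long insert began mainly near the middle, 9 had upstream main starts in the short insert. At chr9:65385415-65385565 (-) the share of long starts near the middle was 69.1% and 64.2% in EpiLong and 59.1% and 58.0% in LentiLong, and 3.60% to 6.11% lay near the displaced base. In its short insert the share near the middle was 41.8% and 40.5% in EpiShort and 23.2% and 23.6% in LentiShort. At chr11:12167083 the long share near the middle was 49.1% and 43.6% in EpiLong and 48.9% and 42.8% in LentiLong, and 4.62% to 17.4% lay near the displaced base. Both sites had more starts near the middle in every long sample.

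At chr12:68610622-68610772 (-), opposite RAP1B, the share of long starts near the middle was 35.8% and 35.0% in EpiLong and 37.6% and 39.1% in LentiLong. At chr4:10169957-10170107 (+), the 1 site with a downstream main start, it was 26.2% and 30.6% in EpiLong and 43.1% and 44.8% in LentiLong. At VSIG10 it was 31.2% and 32.1% in EpiLong and 45.5% and 45.7% in LentiLong. LentiLong was above EpiLong in the last 2.

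At HCG14 (chr6:28896382-28896532, + strand), a non-coding gene, the share near the middle was 38.4% and 39.1% in EpiLong and 31.3% and 30.2% in LentiLong, with EpiLong higher. The site at chr5:160262869-160263019 (+) had 29.0% to 32.3%, and chr22:39920148-39920298 (-) had 10.5% to 13.7%. In 8 of the 10 the window around the middle held more starts than that around the displaced base in all 4 long samples. The 2 exceptions were TOP2B (chr3:25664821-25664971, - strand), with 12.1% to 21.5% near the middle and 23.6% to 27.6% near the displaced base, and chr1:176880281-176880431 (-), with 11.3% to 18.9% and 11.4% to 30.5%.

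In the 31 sites whose long insert began mainly downstream of the reach of the short reads, the main long start lay 37 to 111 bp past the middle, with a median of 63 bp. Long reads were found no further than 111 bp downstream, which is where the long insert of chr1:36150963 began mainly. At chr3:171447460 the main long start lay 43 bp downstream, and the share of starts past the reach of the short reads was 67.2% and 66.1% in EpiLong and 47.8% and 50.8% in LentiLong. The displaced base there kept 14.2% to 15.3%. At RNF32 (chr7:156640654-156640804, + strand) it lay 65 bp downstream, with 79.0% and 80.6% in EpiLong and 82.5% and 80.8% in LentiLong past that reach. In 12 of the 31 sites the displaced base still had more starts near it than the middle in all 4 long samples, and in 7 the middle had more in all 4. Over the 106 sites the median share past that reach was 34.1% and 30.5% in EpiLong and 28.6% and 27.7% in LentiLong.

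Use of both bases in the long inserts was compared between vectors on the log2 odds scale, over 237 random sites. Near the displaced base 46 of 106 sites differed at an adjusted p under 0.05 (limma, Benjamini-Hochberg), where 48.9% of all 237 did. Odds were higher in LentiLong in 30 (34.6% of all 237) and lower in 16 (14.3%). Near the middle 46 of 106 differed, where 49.4% of all did, with 22 higher in LentiLong (31.6%) and 24 lower (17.7%). Fewer sites passed near each of the bases whenever 1 sample was left out, in fits that left 1 vector with 1 sample. The share of all 237 sites that passed in those fits is not given, so the fall cannot be read as particular to the displaced sites.

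At HNRNPA3 the share of long starts near the displaced base was 42.9% and 46.2% in EpiLong and 9.23% and 13.7% in LentiLong (log2 odds, lentiviral minus episomal, -2.65, SE 0.26, adjusted p = 0.00748, limma). Near the middle it was 9.59% and 9.53% in EpiLong and 0.369% and 0% in LentiLong, where 1 and 0 reads lay in that window, so no size is given. Both windows held a smaller share in LentiLong, with no overlap, as the choice of sites listed for these tests required. The site had 1918 and 1773 reads in EpiLong and 271 and 498 in LentiLong, where the 0 of 498 allows a share of up to 0.602% (3 counts, counting error only).

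At chr19:51785138-51785288 (+), 28 bp upstream, the share near the displaced base was 5.86% and 7.04% in EpiLong and 22.6% and 21.9% in LentiLong (2.06, SE 0.14, adjusted p = 0.00508, limma). At chr12:68610622 it was 10.1% and 10.4% in EpiLong and 2.72% and 2.64% in LentiLong (-2.04, SE 0.09, adjusted p = 0.00508, limma). At VSIG10 it was 20.9% and 24.4% in EpiLong and 8.54% and 7.55% in LentiLong. The vectors overlapped in none of these 3, as the choice of listed sites required. The fitted differences of greatest size were at chr19:12946152-12946302 (-) and chr7:12403211-12403361 (+), where at most 1.80% of the long starts lay near the displaced base in any sample and 1 or both samples of a vector had none, so no size is given.

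At chr6:31703401 the share near the middle was 2.54% and 3.56% in EpiLong and 9.46% and 9.32% in LentiLong (1.74, SE 0.21, adjusted p = 0.0128, limma). At chr3:171447460 it was 14.3% in both EpiLong samples and 30.9% and 29.1% in LentiLong (1.36, SE 0.09, adjusted p = 0.0071, limma). Its short inserts had 14.2% and 13.5% in EpiShort and 29.8% and 28.9% in LentiShort, so LentiShort was above EpiShort too. At chr2:43219613-43219763 (-) it was 28.9% and 28.0% in EpiLong and 14.1% and 13.9% in LentiLong, lower in LentiLong (-1.29, SE 0.08, adjusted p = 0.0071, limma).

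The authors' deposited csRNA profiles belong to no sample of the series, and each of the 2 is given as it stands. Each profile by itself used the middle in most displaced sites. The highest csRNA position lay within 5 bp of the middle in 76 and 75 of the 108 sites, near the displaced base in 14 and 14, and elsewhere in 18 and 19. In the 137 other sites it lay near the middle in 112 and 121. Both profiles together lay there in 53 of the 108 (49.1%) and in 102 of the 137 (74.5%). Over the bases of the long insert it lay near the middle in 73 and 74 of the 108. Whether such profiles were used to centre the sites was not tested.

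The csRNA reads per displaced site were few, with medians of 59.5 and 65.5, from 5 to 1673 and from 2 to 2124. The 137 other sites had more, with medians of 99 and 118. Whether the lower depth bears on the csRNA positions of the displaced sites was not tested. A median of 41.9% and 37.7% of them began near the middle, against 54.8% and 56.4% in the other sites. Near the displaced base it was 12.1% and 14.8%. No csRNA read began on the displaced base itself in 36 and 30 sites, and none on the middle base in 4 and 2.

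Both profiles had their highest position near the displaced base in 5 sites. At HNRNPA3 16 of 39 and 96 of 129 csRNA reads began within 5 bp of it. At ANP32A 91 of 148 and 60 of 141 did, and at WDR89 (chr14:63641747-63641897, - strand) 40 of 93 and 66 of 144. At chr19:51785138 20 of 33 and 47 of 78 did, and at chr5:180873633-180873783 (-), which was named after its values were seen, 13 of 23 and 28 of 40. Of the 55 sites whose long insert kept the displaced base, 25 had both profiles highest near the middle, as had 6 of the 10 whose long insert began there.

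RNA per DNA is the log2 ratio of an insert's share of RNA reads to its share of DNA reads, with 1 read added to each count. Its median over the 108 sites was -1.91 in EpiShort, -0.75 in LentiShort, -1.18 in EpiLong and -1.01 in LentiLong. In the 137 other sites it was -1.61, -0.74, -1.23 and -0.99. The displaced sites ran from -7.69 to 3.81 in EpiShort and from -5.85 to 3.21 in LentiShort. These ratios use library totals, whereas the fitted differences below use TMM scaling, so they are on unlike scales. The median fitted difference in RNA per DNA of the short displaced inserts was 0.06 with TMM and 0.73 with library totals.

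Ranked by the mean of both vectors, HNRNPA3 had the highest RNA per DNA of the short displaced inserts, 3.93 and 3.70 in EpiShort and 3.26 and 3.16 in LentiShort. Its long insert had -4.65 and -4.68 in EpiLong and -7.54 and -6.75 in LentiLong; short and long tables were normalised separately, and this difference was not tested. WDR74 had 3.53 and 3.43 in EpiShort and 0.88 and 0.81 in LentiShort, and TRIM21 2.89 and 2.75 in EpiShort and 1.38 and 1.30 in LentiShort. EpiShort was above LentiShort in all 3.

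The fifth highest by that mean, chr8:144428573, was higher in EpiShort, with 2.14 and 2.24 in EpiShort and 0.56 and 0.77 in LentiShort. The lowest by that mean was chr10:68563152-68563302 (+), with -6.63 and -6.57 in EpiShort and -5.11 and -5.79 in LentiShort, and the next chr5:149320819-149320969 (-), with -7.55 and -7.84 in EpiShort and -3.03 and -3.54 in LentiShort. In EpiShort alone the latter was the lowest of all. The other 3 of the lowest 5 were chr6:119312051-119312201 (+), chr16:69330752-69330902 (+) and chr9:129863005, from -6.02 to -4.13.

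Most displaced sites differed between vectors in level, as did most inserts. In RNA reads of the short inserts 99 of 108 differed at an adjusted p under 0.05 (edgeR's quasi-likelihood test, Benjamini-Hochberg), where 89.0% of all 499 inserts did. They were higher in LentiShort in 50 (45.1% of all 499) and lower in 49 (43.9%). In RNA per DNA 93 differed (83.4% of all), 49 higher (42.9%) and 44 lower (40.5%). The split moved with the scaling. With library totals in place of TMM 68 were higher and 31 lower in RNA, and 65 and 28 in RNA per DNA. The median log2 difference of these sites rose to 0.70 and 0.73. Shares over all 499 inserts with library totals are not given, so this lean cannot be read as particular to the displaced sites.

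In the long inserts 91 of 108 sites differed in RNA (80.7% of all 249 long inserts), 46 higher in LentiLong (39.8%) and 45 lower (41.0%). In RNA per DNA 90 differed (84.7%), 49 higher (43.8%) and 41 lower (41.0%). With library totals 39 were higher and 49 lower in RNA, with a median log2 difference of -0.11. Shares over all 249 long inserts under that scaling are not given either.

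The largest difference of the short inserts was at chr19:51785138, where RNA reads per 1000000 were 125 and 117 in EpiShort and 4066 and 4318 in LentiShort (4.05, SE 0.17, adjusted p = 2.79e-12, edgeR; this and the next values are log2 differences in RNA per DNA, lentiviral minus episomal). At chr5:149320819 they were 4.50 and 3.94 in EpiShort and 139 and 106 in LentiShort (3.75, SE 0.20, adjusted p = 3.18e-11, edgeR). At WDR89 they were 587 and 567 in EpiShort and 6429 and 6122 in LentiShort (3.17, SE 0.09, adjusted p = 5.32e-14, edgeR). Both LentiShort samples were above both EpiShort samples in all 3, but only sites without overlap were listed here. In RNA per DNA the 2 vectors did not overlap in 103 of 108 short displaced inserts and in 127 of 137 others.

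At WDR74 RNA reads per 1000000 were lower in LentiShort, at 24227 and 23724 in EpiShort and 3822 and 3709 in LentiShort (-3.31, SE 0.07, adjusted p = 1.39e-15, edgeR). BCL2L1 had 4716 and 5309 in EpiShort and 921 and 903 in LentiShort (-2.73, SE 0.11, adjusted p = 1.38e-12, edgeR). The site at chr1:2180312 had 2381 and 2501 in EpiShort and 630.3 and 665 in LentiShort (-2.60, SE 0.11, adjusted p = 3.26e-12, edgeR). None of the 3 overlapped between vectors, as the choice of listed sites required. FKBP15 was also lower in LentiShort (-2.46, SE 0.12, adjusted p = 1.2e-11, edgeR). The other 3 of the 10 largest, chr5:40801977-40802127 (-), chr7:12403211 and chr5:42993459, were higher in LentiShort, by 2.67 to 3.14.

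In RNA reads of the long inserts WDR74 was lower in the lentiviral vector too, with, per 1000000, 19553 and 18994 in EpiLong and 2268 and 2152 in LentiLong (-2.96, SE 0.09, adjusted p = 3.42e-06, edgeR, in RNA). The vectors did not overlap, as the choice of listed sites required.

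The largest differences in RNA per DNA of the long inserts, -5.10 at PCGF5 (chr10:91220708-91220858, + strand) and -4.99 at ANPEP (chr15:89815042-89815192, - strand), were of the 2 displaced sites with under 50 reads in a long sample, at 0.711 to 5.07 RNA reads per 1000000 in LentiLong. At chr16:69330752 RNA per DNA was -3.06 and -3.08 in EpiLong and -7.33 and -6.51 in LentiLong (-3.83, SE 0.25, adjusted p = 7.97e-07, edgeR). At RNF32 it was 3.64 and 3.07 in EpiLong and -0.09 and -0.43 in LentiLong (-3.64, SE 0.22, adjusted p = 5.44e-07, edgeR). At ALDH1A2 (chr15:58331926-58332076, - strand) it was -2.28 and -1.87 in EpiLong and 1.67 and 1.37 in LentiLong (3.57, SE 0.20, adjusted p = 4.03e-07, edgeR). The first 2 of these were lower and the third higher in LentiLong, with no overlap, as the choice of listed sites required. The vectors did not overlap in RNA per DNA in 99 of 108 long displaced inserts and in 127 of 137 others.

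RNA per DNA passed the test at both insert lengths in 78 of the 108 sites. It was higher in the lentiviral vector at both lengths in 36 and lower at both in 28. It was higher in the short and lower in the long insert in 7, and the reverse in 7. In the 137 other sites these 4 counts were 43, 38, 14 and 6. Whether the vector difference itself differed between lengths was not tested.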

How the data were processed

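TSS-MPRA and DNA reads of 4 K562 libraries were analysed from the deposited tables, which hold for each barcode the RNA and DNA read counts of each sample and, per the file headers, the fraction of RNA reads that began at each position. Reads were aligned with STAR 2.7.9a to hg38, per the submitters' processing notes, and no other step is given in the sources used here. A table stacks several blocks of rows with no sample label of their own, and as an assumption blocks were assigned to samples, with their replicate numbers, by the order of the names in the table's name. Another 12 row blocks of the 6 tables belong to no sample of the series and hold the csRNA profiles. Position fractions times RNA counts gave whole reads within 0.05 for 93.73% (LentiLong replicate 2) to 99.97% of values, and barcodes of an insert were summed.

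The named region is centred on position 128 in the short tables and on position 203 in the long ones. Vectors were compared by edgeR 4.0.16 quasi-likelihood tests on read counts with TMM scaling over all inserts with a mean of at least 10 reads, for RNA per DNA as the interaction of molecule and vector, and by limma 3.58.1 on log2 odds of starts within 5 bp of a base, with 0.5 reads added, over random sites with at least 50 reads in each long sample (R 4.3.3). The edgeR fit of RNA reads was tried on simulated counts, and limma on simulated normal values, not on odds from reads. The RNA per DNA fit was not simulated. Sequences and annotation came from hg38 and GENCODE v44 (python 3.11.15, pandas 2.3.3, numpy 2.4.6, pysam 0.24.0). The members and the lists were chosen with earlier results of these data known. Sites are named with values by rule: the 10 farthest and 5 nearest main starts, the 10 highest main shares, the 5 highest and 5 lowest in RNA per DNA, all near an annotated start on their strand, all whose long insert began at the middle, the 10 with most long reads that kept the displaced base, and up to 10 with the largest difference in each test without overlap. Some sites and sequences that the rule names are not reported here. Alternatives were other scalings, DESeq2 1.42.0, no filter, other windows, minimums and pseudocounts, the core table of the authors, a replicate block and each sample left out. Reads carry no molecular identifiers in these tables, so limits cover counting error only.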

Additional observations from a re-analysis of the deposited data

Results flagged for a closer look

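At chr16:66549858-66550008 (+), opposite TK2, RNA per DNA was higher in the lentiviral vector in the short inserts, by 0.76 on the log2 scale (edgeR, adjusted p = 3.43e-05), and lower in the long inserts, with a log2 difference of -3.08 (edgeR, adjusted p = 2.6e-05). In both lengths the replicates of the 2 vectors did not overlap, as in 103 (short) and 99 (long) of the 108 displaced sites. The long insert had few RNA reads, 372 and 230 in EpiLong and 107 and 78 in LentiLong. The opposite direction in short and long inserts is what drew attention to the site, and the difference between the lengths was not tested.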

How the results depend on the processing

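The number of displaced sites, 108, was 56 with a limit of 20 bp in place of 5 bp, 97 with 10 bp and 105 to 115 under the other settings, with 106 to 112 when 1 sample was left out. The sites themselves shifted more than their number. With the highest sum over 5 adjacent positions 96 of 115 were among the 108, with EpiShort alone 100 of 113 and with LentiShort alone 102 of 108. Without 1 sample 105 to 107 of the 108 were kept. Of the long inserts, 52 to 54 kept the displaced base and 10 to 12 began at the middle without 1 sample. Leaving out 1 sample gave 94 to 98 differing sites in short RNA, 87 to 96 in short RNA per DNA, 74 to 95 in long RNA and 83 to 89 in long RNA per DNA. In the long odds it gave 2 to 15 near the middle and 20 to 29 near the displaced base, where 46 and 46 had passed with all samples. With the replicate number as a block (replicate block), 24 sites passed near the middle and 27 near the displaced base, and 98, 94, 84 and 92 in the 4 level tests. Deviations of samples of the same number correlated at -0.06 in short RNA, -0.02 in long RNA, -0.08 in the odds at the middle and 0.09 in those at the displaced base. Such values show little shared deviation by number, and they cannot tell whether samples were paired. DESeq2 gave 99, 94, 95 and 93 in the level tests. Shares over all inserts or random sites under these settings are not given, so the counts cannot be read as particular to the displaced sites. Of the values of single sites under other settings, 310 held and 6 no longer passed. More no longer passed without 1 sample, in fits that left 1 vector with 1 sample. In both sets 0 changed sign. Depth limits sites with few long reads, of which 2 fell under the minimum of 50, and EpiShort DNA replicate 2.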
